A study of Mus musculus with 2 samples.

Results

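The peaks described here are CTCF ChIP-seq peaks that lie at internal alternative promoters of protein-coding genes in newborn mouse midbrain. A peak was taken when its summit lay within 1 kb of the start of a coding transcript in the GENCODE vM21 annotation. That start had to lie more than 5 kb downstream of the outermost 5′ end of its own gene and more than 5 kb from the outermost 5′ end of any other coding gene. On chromosomes 1 to 19, 1197 of 66972 peaks of the optimal list met this rule, a share of 1.79%, and they fell in 940 genes. The rule used positions only and no signal value. The optimal list held 68603 peaks in all, of which 1631 were not on these chromosomes.

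The study has 1 group with 2 replicates: newborn (postnatal day 0) midbrain of the B6NCrl strain, with sex not collected and with no genotype change or treatment named. The labels trace the 2 replicates to a shared biosample and donor, so differences between them may be technical only. Each peak carries the authors' signal value, whose scale is not stated, and the read depth is unknown. The tissue holds many cell types, and a weak peak may be weak in every cell or present in few, which cannot be told apart here.

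CTCF recognises a long and directional DNA motif through its zinc fingers, holds chromatin loops together with cohesin and can insulate promoters from enhancers. An alternative promoter inside a gene gives a transcript that lacks the upstream exons, and often a protein with a different or shorter N-terminus. Many neuronal genes use such promoters, among them Bdnf, which encodes a neurotrophin, and Nrg1, which encodes a growth factor for glia and neurons. Many mammalian promoters overlap CpG islands, stretches rich in CG dinucleotides that are mostly unmethylated.

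The motif at the strongest members is shown first. It was learned from strong peaks of this same list on other chromosomes. A match thus shows likeness to those peaks and is not an independent check of CTCF binding. A 20 bp matrix was built from strong peaks without a preset motif, and its consensus was TGGCCACCAGGGGGCGCTAT. The next lines give 30 bases around the best match of the 6 members of highest signal, then of Pde2a, Bdnf and Grb10, which are described further on. Coordinates are 1-based on mm10, the sequence is written on the strand named, and capitals mark the 20 bp match.
Twf2 at chr9:106212121-106212150, minus strand: cactgCGCCCAGTAGGGGGCGCAGCgaagc
Lingo1 at chr9:56636485-56636514, plus strand: ccaagTGACCAGCAGAGGGCAGTATagatc
H2-DMa at chr17:34135411-34135440, plus strand: ccgacCTTCCACCAGGGGGCGGAGGtctcc
Pik3r2 at chr8:70769546-70769575, minus strand: tctccTGCTCACCAGGGGGCGCTCGtgcgc
Zfp638 at chr6:83914261-83914290, minus strand: gccctCTGCCAGAAGGGGGCGATCGccagc
Cd276 at chr9:58540025-58540054, plus strand: tctgaTGACCACTAGATGGCGCCAGacact
Pde2a at chr7:101450507-101450536, plus strand: gcgatAGAACACCAGGGGGCGCAGGagcgt
Bdnf at chr2:109695006-109695035, minus strand: cagtgTGGCCAGAAGAGGGCACCCTctacc
Grb10 at chr11:12025857-12025886, plus strand: agactTCGCCACACGGGGTCGCTGCgtgcg

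The matches of the 6 strongest members shared between 13 and 16 of the 20 bases with the consensus. Lingo1 shared 15 and Pik3r2 shared 16. Pde2a, Bdnf and Grb10 shared 14 each. In Pde2a the annotated transcript start, at position 101450520 of chromosome 7, lay inside the match, which spanned 101450512 to 101450531.

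Some strong members had no match that passed the threshold, and 3 of them are shown because their signals were as high as those of strong members with a motif. These 3 are the strongest members without a match, chosen after their values were seen. Capitals mark the best-scoring 20 bases within 50 bp of the summit.
Itpr1 at chr6:108417691-108417720, plus strand: gctccCAGCCAGCAGGTGTCGTGTGtgaga
Fam19a5 at chr15:87625820-87625849, plus strand: atggaCCCTCGGTAGGTGGCACCAGcgctc
Extl3 at chr14:65098097-65098126, minus strand: ggatcCGGCCGGCAGGGGGAGTGGAggatc

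Itpr1 encodes an intracellular calcium release channel, and Extl3 a glycosyltransferase of heparan sulphate synthesis. The log2 odds score of the best window was 9.93 for Itpr1 against 12.65 needed, 11.9 for Fam19a5 against 12.7 needed, and 10.9 for Extl3 against 12.65 needed. Their signal values were 498, 453 and 446. In Extl3 the annotated start again lay inside the window shown. The absence of a match says only that these letters did not reach the threshold.

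Internal promoters carried a CTCF peak in a smaller share of cases than outermost promoters, while the shares of CpG-rich starts were close. GENCODE lists 10485 coding transcripts whose start could hold a member, in 4819 genes. Starts of a gene within 1 kb of each other were joined into 7364 start clusters. A peak summit lay within 1 kb of 1040 of the 7364 internal clusters, 14.1% (95% Wilson interval 13.3 to 14.9), against 7500 of 20807 outermost 5′ ends, 36.0% (35.4 to 36.7). Over clusters of all coding starts together the share was 29.6%.

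A start was called CpG-rich when the 500 bp to either side had a GC content over 50% and an observed to expected CpG ratio over 0.6. A cluster was counted as CpG-rich, or as having a peak, when any of its starts was. Clusters of several starts thus covered more sequence than an outermost end, which is a single position. Of CpG-rich internal clusters, 367 of 662 had a peak, 55.4% (51.6 to 59.2), against 5356 of 9511 CpG-rich outermost ends, 56.3% (55.3 to 57.3). The intervals overlapped. Of CpG-poor internal clusters, 673 of 6702 had a peak, 10.04% (9.34 to 10.8), against 2144 of 11296 CpG-poor outermost ends, 18.98% (18.3 to 19.7), and these intervals did not overlap. At CpG-poor internal starts the density of summits within 1 kb was near that of their surroundings, as given below. A peak there thus need not belong to the start. CpG-rich clusters made up 8.99% of internal clusters and 45.7% of outermost ends.

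**Figure D1:**
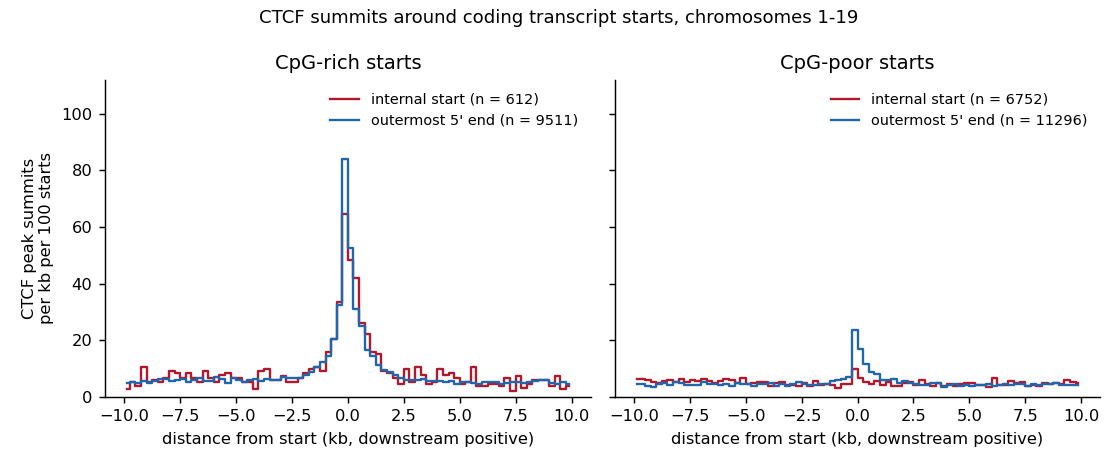
Density of CTCF peak summits (summits per kb per 100 starts, y axis) in 250 bp bins by distance from the start (kb, downstream positive, x axis), for internal starts (red, the most upstream start of each cluster) and outermost 5′ ends (blue). At CpG-rich starts the red line reaches 64.7 and the blue line 83.9 just upstream of the start, and at CpG-poor starts 9.66 and 23.6.

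Summits were concentrated within 250 bp of internal starts, and less so over the 1 kb that the rule allows. Around the most upstream start of each internal cluster, there were 12.2 summits per kb per 100 starts within 250 bp and 5.28 at 5 to 10 kb, against 42.1 and 4.83 around outermost 5′ ends. At the 612 internal starts that were themselves CpG-rich, the density was 56.5 within 250 bp and 5.83 at 5 to 10 kb. For CpG-rich outermost ends it was 68.2 and 5.41. At CpG-poor internal starts the density within 250 bp was 8.20, against 5.23 at 5 to 10 kb. For CpG-poor outermost ends it was 20.2 and 4.34. Within 1 kb, the density was 7.91 at all internal starts and 34.1 at CpG-rich ones. At CpG-poor internal starts it was 5.54 within 1 kb, near the 5.23 found at 5 to 10 kb.

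The kind of transcript model also went with the share. Of the internal clusters, 2699 (36.7%) held only models marked as incomplete at the 5′ end, so that their annotated start need not be a promoter, and 3587 (48.7%) began inside a later exon of another model of the gene. Incomplete clusters had a peak in 197 of 2699 cases, 7.30%, and clusters with 1 complete model or more in 843 of 4665, 18.1%. Clusters inside a later exon had a peak in 254 of 3587 cases, 7.08%, and clusters outside later exons in 786 of 3777, 20.8%. Among CpG-rich clusters the shares were close, with 23 of 41 inside later exons (56.1%) and 344 of 621 outside (55.4%). Among CpG-poor clusters the shares were 231 of 3546 inside (6.51%) and 442 of 3156 outside (14.0%). The shares by transcript model were not set against the density of summits around these clusters.

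**Figure D2:**
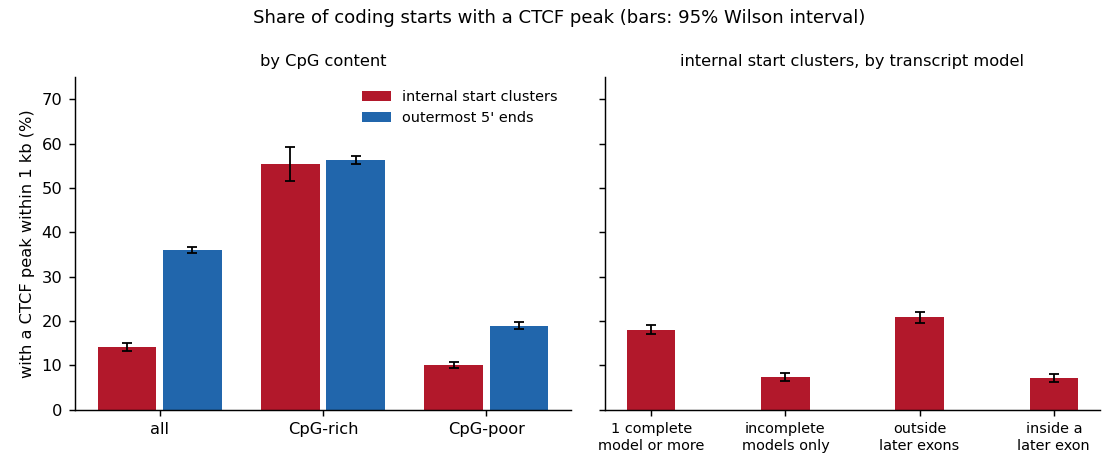
Share of starts with a CTCF peak summit within 1 kb (%, y axis, bars from 0), for internal start clusters (red) and outermost 5′ ends (blue) by CpG content, and for internal clusters by transcript model; black bars are 95% Wilson intervals. The CpG-rich pair stands at 55.4% and 56.3%, and the CpG-poor pair at 10.04% and 18.98%.

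The members followed the same split. The start nearest to the summit came from an incomplete model for 222 members (18.5%), lay inside a later exon for 290 (24.2%) and belonged to a principal isoform for 387 (32.3%). For 829 members (69.3%) the start had transcript support level 1 or the GENCODE basic tag. For these reasons the members are peaks at annotated internal starts, and use of each start as a promoter was not measured. Of the 975 members at complete models, 545 (55.9%) had a start codon downstream of the most upstream start codon of the gene. Protein sequences were not compared. Summits of 347 members (29.0%) fell in an exon and those of 97 (8.10%) in coding sequence.

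Summits lay on both sides of the start, within the 1 kb that the rule allows, which itself keeps their median position near the start. The median position was -21 bp, with quartiles of -266 and 341 bp, where negative is upstream of the start. Upstream summits numbered 633 (52.9%, 50.05 to 55.7), downstream summits 563, and 1 lay on the start. Summits within 100 bp of the start numbered 289 (24.1%) and those more than 500 bp away 399 (33.3%). The starts were a median of 26834 bp downstream of the gene's outermost 5′ end, with quartiles of 11587 and 76368 bp.

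The greatest distance, 2861493 bp, belonged to 2 members of Fgfr2, a fibroblast growth factor receptor gene, with signals of 39.1 and 28.9. It rests on a GENCODE model of Fgfr2 that begins far upstream of the others. Members 50 kb or more from the outermost end numbered 417, with a median signal of 60.8 and a motif in 30.2%, against 780 nearer members with 69.4 and 40.0%. The values were therefore lower among the distant members.

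A CTCF motif was found in more members than in outermost promoter peaks and in fewer than in gene body peaks. Outermost promoter peaks had summits within 1 kb of an outermost 5′ end. Gene body peaks had summits inside a coding gene and more than 1 kb from every annotated transcript start. A match at a per-position p of 1e-05, wholly within 50 bp of the summit, was present in 438 members, 36.6% (33.9 to 39.4), against 24.2% (23.3 to 25.2) of 8161 outermost promoter peaks, 60.7% (60.1 to 61.3) of 27328 gene body peaks and 56.7% of all autosomal peaks. In windows 1 kb to either side of the summits the match was present in 1.13% of windows beside members, against 0.790% beside outermost promoter peaks and 0.895% beside gene body peaks. The share among members was 32.4 times that of their own flanks. This ratio was 30.7 for outermost promoter peaks, 67.9 for gene body peaks and 63.8 for all autosomal peaks. By chromosome, members minus outermost promoter peaks averaged 11.9 percentage points (SD 6.07, n = 19 autosomes) and was above 0 on 18 of 19, and members minus gene body peaks averaged -24.6 (SD 6.48) and was below 0 on 19 of 19.

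The motif share was higher in stronger peaks of all 3 classes. All autosomal peaks were ranked by signal and divided into 5 bins of equal size. From the weakest bin to the strongest but one, 14.6%, 23.4%, 33.9% and 49.2% of members had a match, and in the strongest 132 of 176 did. In the 5 bins the shares were 6.15%, 11.7%, 19.5%, 36.0% and 67.2% for outermost promoter peaks, and 38.8%, 50.4%, 58.5%, 72.0% and 87.5% for gene body peaks. Members lay between the comparison classes in each bin, though in the strongest bin their interval (68.1 to 80.8) overlapped that of outermost promoter peaks (64.4 to 69.9).

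**Figure D3:**
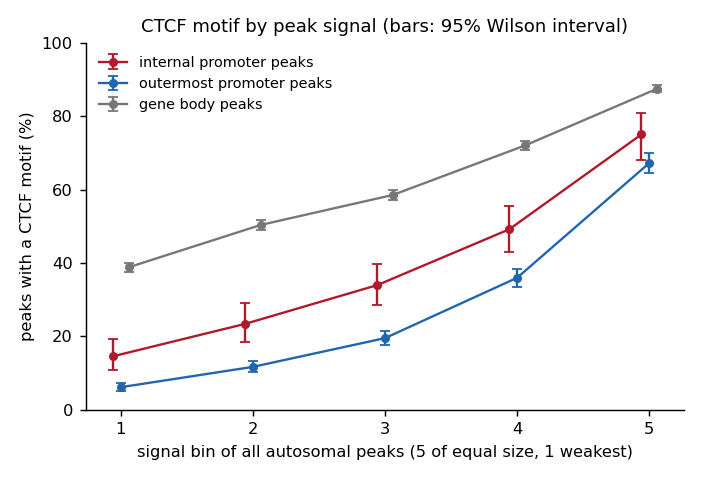
Share of peaks with a CTCF motif match within 50 bp of the summit (%, y axis) by bin of all autosomal peaks ranked by signal (x axis, 5 bins of equal size, 1 weakest), for internal promoter peaks, outermost promoter peaks and gene body peaks; bars are 95% Wilson intervals. Internal promoter peaks run from 14.6% upward, above outermost promoter peaks (6.15% to 67.2%) and below gene body peaks (38.8% to 87.5%) in each bin.

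The motif was least frequent right at the start. It was present in 68 of 289 members with a summit within 100 bp of the start, 23.5% (19.01 to 28.7), in 187 of 509 beyond 100 and up to 500 bp, 36.7%, and in 183 of 399 farther away, 45.9% (41.0 to 50.8). A CpG-rich summit was found in 39.1%, 36.5% and 13.3% of these members. The CpG-rich share thus changed little where the motif share rose from 23.5% to 36.7%, and fell mainly in the farthest group. Median signal was 64.7, 63.5 and 71.9. The part of CpG content in the difference was not tested.

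CpG content split the members as well. A CpG-rich summit was found in 352 members (29.4%), against 60.7% of outermost promoter peaks and 1.22% of gene body peaks. Of these 352 members 20.2% (16.3 to 24.7) had a motif, against 43.4% (40.1 to 46.8) of the 845 CpG-poor members. The outermost promoter peaks had a motif in 18.7% of 4954 CpG-rich and 32.7% of 3207 CpG-poor cases. Among CpG-rich peaks the interval of the members covered the outermost share, and among CpG-poor peaks it lay above it.

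Members at doubtful starts resembled gene body peaks in motif share. A match was present in 59.5% of the 222 members at incomplete models, against 31.4% of the 975 at complete models. It was present in 57.9% of the 290 members whose start lay inside a later exon, against 29.8% of the 907 others. Median signal was 90.3 at incomplete models and 63.0 at complete ones.

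The motif showed no clear preference for the direction of the gene. Its strand, read with the G-rich run on the right as in the sequences printed, matched that of the transcript in 202 of 438 members, 46.1% (41.5 to 50.8). The share was 45.7% of 245 upstream matches and 46.6% of 193 downstream matches. The interval of the share over all 438 included 50%.

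Signal at the members was near that of outermost promoter peaks. The median was 66.2 for members, with quartiles of 37.3 and 166 and a range of 7.65 to 594, against 62.8 for outermost promoter peaks, 72.2 for gene body peaks and 76.2 for all autosomal peaks. As percentiles of all autosomal peaks the medians were 45.7, 43.9 and 48.4 for members, outermost promoter peaks and gene body peaks. The difference between members and outermost promoter peaks was small beside its spread over chromosomes, with a mean of 2.68 percentile points (SD 5.22, n = 19 autosomes), above 0 on 14 of 19. The difference from gene body peaks averaged -1.94 (SD 5.14) and was below 0 on 12 of 19. The median gap to outermost promoter peaks was 1.81 points from the optimal list, and 0.31 from replicate 1 peaks alone, without replicate 2; the gap to gene body peaks was -2.73 and then -4.44.

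The gap to gene body peaks turned round in both motif classes, and the gap to outermost promoter peaks among peaks with a motif. Among peaks with a motif, median signal was 151 for members, against 189 for outermost promoter peaks and 110 for gene body peaks. Members were then 5.14 percentile points below outermost promoter peaks, printed as -5.14, and 7.24 points above gene body peaks. Among peaks without a motif the medians were 51.7 for members, 50.5 for outermost promoter peaks and 47.0 for gene body peaks, with members 0.86 and 3.58 points higher.

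The 12 strongest members included genes of the cytoskeleton, signalling and the immune system, and 11 of the 12 had a motif. Twf2, which encodes an actin monomer-binding twinfilin, had the highest signal at 594, with 298 in replicate 1 and 298 in replicate 2, 408 bp downstream of the start of an incomplete model. Lingo1, which encodes a membrane protein that restrains myelination, had 593, with 300.0 and 295 in replicates 1 and 2, and its summit was at -832 bp. H2-DMa, which acts in peptide loading of MHC class II, had 568, with 288 and 283. The replicates were nearly equal at all 3.

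Pik3r2, a regulatory subunit gene of PI 3-kinase, had 566, with 281 and 288 in replicates 1 and 2. The Pik3r2 member lay at an incomplete model. Its start lay inside a later exon, as did those of Twf2, H2-DMa, Cd276 and Cln6. Zfp638, a zinc finger gene, had 527, with 270 and 257. Cd276, which encodes an immune checkpoint ligand, had 518, with 274 and 241, at an incomplete model. Pde2a, which encodes a phosphodiesterase for cyclic nucleotides, had 504, with 257 and 247, and its summit was 6 bp downstream of a start 28829 bp inside the gene. Its motif spans that start, as printed above. The other 5 were Dusp13, Cln6, Itpr1, Prss36 and Xkr6, with 492 to 509, and of these Cln6 and Itpr1 lay at incomplete models.

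Genes held different numbers of members. Of the 940 genes, 743 held 1 member, 152 held 2, 33 held 3, 10 held 4, and Gramd1b and Abr held 5 and 6. The 6 members of Abr had signals of 465, 207, 60.4, 48.2, 46.0 and 35.4, and the strongest 2 had a motif. Signal within this gene thus ranged from below the lower quartile of all members to above the upper one.

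Gene lists of neuronal and multi-promoter genes, chosen from general knowledge but with earlier results of these data known, were read against all genes with an internal start, of which 940 of 4819 held a member, 19.5%. Among genes known for alternative promoters, 30 of 55 held a member, 54.5%. They also had 3.45 start clusters a gene, against 1.53 over all genes. By cluster, 43 of their 190 had a peak, 22.6%, against 14.1% over all clusters. Counts are given both by gene and by cluster for this reason. Since the lists were not chosen independently of the data, a high share in them is a description. CpG-rich clusters made up 16.8% of the clusters of this list, against 8.99% over all clusters, and 19 of these 32 had a peak. The part of CpG content in the share of this list was not tested.

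In the alternative promoter list, Dst, which encodes a plakin with neuronal, muscle and epithelial forms, had members of 319 and 63.7, neither with a motif. The Dst replicates gave 173 and 144 at the stronger member. Nrg1 had 303, 209.9 and 46.6, in a run of 3 summits around a pair of starts and none with a motif. The strongest Nrg1 member had 173 in replicate 1 and 134 in replicate 2, and the next had 98.6 and 110.0. Its outermost 5′ end also had a peak, with a signal of 149.6.

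Bdnf had 4 members with signals of 262, 107, 44.5 and 28.1, and the strongest 2 had a motif. Replicates 1 and 2 gave 141 and 122 at the strongest Bdnf member, whose summit was 557 bp downstream of its start, and 67.7 and 38.6 at the next, 18 bp upstream. No peak was listed at the outermost end of Bdnf. Grb10, an adaptor gene of insulin and growth factor receptors that is imprinted, had 264 with a motif and 62.3 without. In Grb10 replicates 1 and 2 gave 146 and 124 at the stronger member. Ank3 with 9 start clusters and Foxp1 with 7 held no member.

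**Figure D4:**
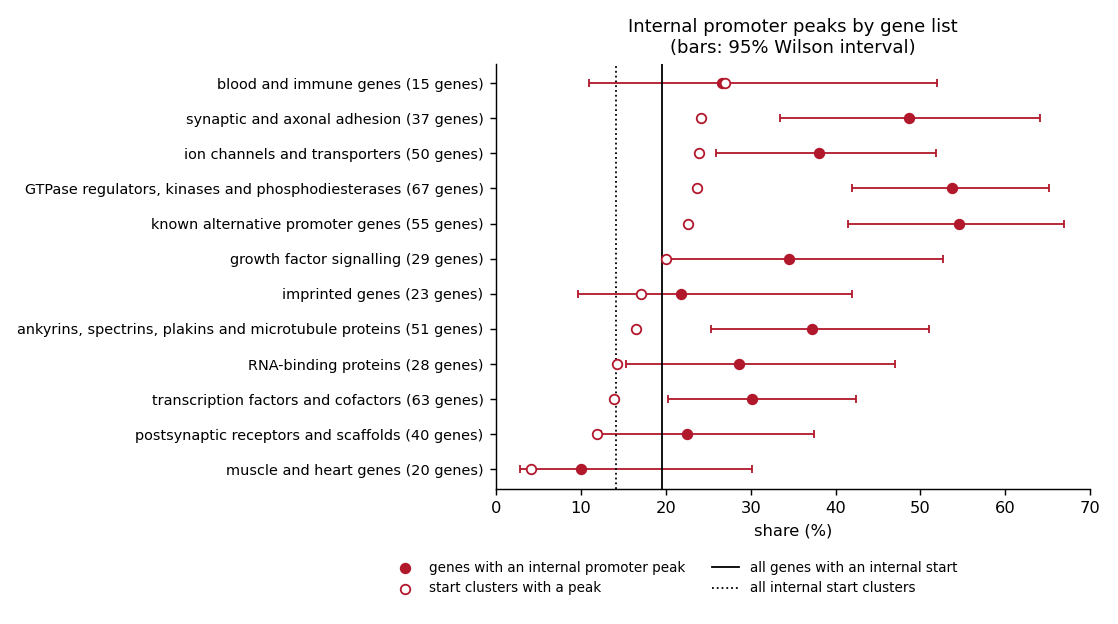
Share of genes with an internal promoter peak (filled points, 95% Wilson interval) and share of their start clusters with a peak (open points) in 12 gene lists (%, x axis), beside all genes (19.5%, solid line) and all clusters (14.1%, dotted line). By gene, known alternative promoter genes stand at 54.5% and imprinted genes at 21.7%; by cluster the same lists stand at 22.6% and 17.1%.

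Genes of cell adhesion and of intracellular signalling stood high in both counts. By cluster, ion channel genes (24.0%) and blood and immune genes (26.9%) stood near them or above. CpG-rich clusters made up 15.7% of the adhesion clusters and 11.5% of the signalling clusters, against 8.99% over all clusters. They made up 14.6% of the ion channel clusters and 11.5% of the blood and immune clusters. The part of CpG content in these shares was not tested. In synaptic and axonal adhesion 18 of 37 genes held a member (48.6%), and 20 of 83 clusters had a peak (24.1%), among them 11 of 13 CpG-rich clusters. Nlgn1, which encodes a postsynaptic neuroligin, had 360, with 198 and 166 in replicates 1 and 2, and Chl1, which encodes an axonal adhesion molecule, had 261, with 138 and 124. The IgLON genes Ntm and Opcml had 170 and 81.3 for Ntm and 153 for Opcml. Of these, Chl1 alone had a motif. Adgrl2 with 6 clusters and Nrcam with 4 held no member.

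Among GTPase regulators, kinases and phosphodiesterases 36 of 67 genes held a member (53.7%), and 43 of 182 clusters had a peak (23.6%). Beside Pde2a, Camk2g, a subunit gene of calcium-calmodulin kinase, had 453 with a motif, and Trio, a guanine nucleotide exchange factor gene, had 267 with a motif. In Camk2g the replicates gave 242 and 211, and in Trio 133 and 135. The Camk2g member lay at an incomplete model, and the starts of both lay inside a later exon. Prkag2, a regulatory subunit gene of AMP-activated kinase, held 4 members of 238, 188, 107 and 33.9, of which the strongest had a motif. Kalrn with 7 clusters and Tiam1 with 5 held none.

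Ion channel and transporter genes held a member in 19 of 50 cases (38.0%), and 23 of their 96 clusters had a peak (24.0%). Scn1a, a voltage-gated sodium channel gene, had 387 with a motif, with 203 in replicate 1 and 187 in replicate 2. Dpp6, an auxiliary subunit gene of A-type potassium channels, had 335 with a motif and 189 without. Cacna1c, an L-type calcium channel gene, had 310 and 67.4, both without. Cacna1b and Scn8a, with 4 clusters each, held no member.

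Postsynaptic receptors and scaffolds were near the background: 9 of 40 genes (22.5%) and 10 of 84 clusters (11.9%). Grm4, a metabotropic glutamate receptor gene, had 236 with a motif, with 121 and 116 in replicates 1 and 2. Shank2, which encodes a scaffold, had 136, 47.0 and 37.4, of which the stronger 2 had a motif. Homer1 had 132 without a motif and Dlgap4 99.6 with one. Sorbs2 with 7 clusters held no member.

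Ankyrins, spectrins, plakins and microtubule proteins held a member in 19 of 51 genes (37.3%), but had 3.33 clusters a gene, and 28 of 170 clusters had a peak (16.5%). Dpysl3, which encodes a collapsin response mediator, had 467 with a motif, with 243 and 225 in replicates 1 and 2. Map7, a microtubule-binding protein gene, had 419 and Tpm1, a tropomyosin gene, 414, both without a motif. Replicates gave 220 and 201 for Map7, and 200.2 and 217 for Tpm1. Epb41l2 with 8 clusters held none.

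Transcription factors and cofactors were above the background by gene, with 19 of 63 (30.2%), and near it by cluster, with 23 of 166 (13.9%). Only 10 of their 30 CpG-rich clusters had a peak, against 367 of 662 over all genes. Cbfa2t3, a corepressor gene, had 317 with a motif and 30.1 without, and Myt1l, a neuronal zinc finger gene, had 285 and 27.8 without. Crem, a cyclic AMP response gene, had 251 and Foxp2, a forkhead gene, 228, both with a motif. The stronger Myt1l member lay at an incomplete model, and its start and that of Foxp2 lay inside a later exon. Mef2c with 7 clusters held none.

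RNA-binding protein genes held a member in 8 of 28 cases (28.6%) and had a peak at 9 of 63 clusters (14.3%), with 1 of 9 CpG-rich clusters. Rbfox3, which encodes the neuronal marker NeuN, had 492 and 58.0, both with a motif, and the replicates gave 236 and 255.7 at the stronger. Elavl4, a neuronal RNA-binding protein gene, had 155 and 84.8, and the splicing regulator genes Rbfox2 and Rbfox1 had 109 for Rbfox2 and 99.2 and 28.7 for Rbfox1. None of these 5 had a motif. Cpeb3 and Rbm47, with 4 clusters each, held none.

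Growth factor signalling genes held a member in 10 of 29 cases (34.5%) and had a peak at 11 of 55 clusters. Beside Nrg1, Grb10 and Bdnf, Nrg2, a neuregulin gene, had 306 with a motif, with 159 and 147 in replicates 1 and 2. The Nrg2 member lay at an incomplete model, with its start inside a later exon. Igf2 and Lrp1b, with 4 clusters each, held none. The list shares Nrg1, Grb10 and Bdnf with that of known alternative promoters.

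Imprinted genes held a member in 5 of 23 cases (21.7%), near the background, and had a peak at 7 of 41 clusters (17.1%). Mest, a hydrolase gene expressed from the paternal copy, had 224 and 36.0 without a motif, and Zim1, a zinc finger gene, had 151 with one. Gnas, which encodes the stimulatory G protein alpha subunit, had 106 without a motif and 101.2 and 28.6 with one. The starts of Zim1 and of the Gnas members of 106 and 28.6 lay inside a later exon. The Gnas outermost end had a stronger peak, of 258. Plagl1 with 3 clusters held none.

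Lists of muscle and heart genes and of blood and immune genes were included for comparison. Expression of these genes in midbrain was not measured, and some may be active there. Muscle and heart genes held a member in 2 of 20 cases and had a peak at 2 of 49 clusters (4.08%): Synpo2 had 66.7 with a motif and Speg 65.7 without. Ttn with 10 clusters and Neb with 7 held none. CpG-rich clusters made up 2.04% of the muscle and heart clusters, against 8.99% over all clusters. The part of CpG content in their low share was not tested. Blood and immune genes held a member in 4 of 15 cases (26.7%), and 7 of 26 clusters had a peak (26.9%). Their median signal was 26.6, against 66.2 over all members: Add2 had 247, 28.1 and 26.6, Dock2 37.3, Ets1 24.1 and Hk1 23.8 and 18.0. The starts of Synpo2, Dock2, the Add2 member of 247 and the Hk1 member of 23.8 lay inside a later exon. Fyn and Runx1 held none.

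The share of genes with an outermost promoter peak was about the same with and without a member. Of the 940 genes with a member, 365 also had an outermost promoter peak, 38.8% (35.8 to 42.0), against 1512 of the 3879 other genes with an internal start, 39.0% (37.5 to 40.5). In the other 575 genes with a member, 61.2%, no peak summit was listed within 1 kb of the outermost 5′ end. Other starts of these genes, which were neither outermost nor eligible by the rule, were not examined. Among the 575 were Twf2, Zfp638, Pde2a, Itpr1, Scn1a, Tpm1 and Bdnf.

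Where a gene had both, neither was regularly the stronger. The strongest member exceeded the outermost peak in 191 of 365 genes (52.3%), and in 148 of the 294 with 1 member (50.3%). The median was 91.5 for the strongest member, against 74.4 for the outermost peak, with a median log2 ratio of 0.19. Single genes went far in either direction: Pik3r2 had 566 inside against 22.7 at the outermost end, and Crem had 251 inside against 461 at the outermost end. The Pik3r2 member lay at an incomplete model, whose start need not be a promoter. Lingo1 had 593 inside against 53.4, and Grm4 236 inside against 483.

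The replicates ranked the members alike. A replicate summit within 100 bp was found in both replicates for 1149 members (96.0%), against 93.9% of outermost promoter peaks and 97.8% of all autosomal peaks. Another 13 lacked a match in replicate 1 and 35 in replicate 2. The Spearman rank correlation between replicates over the 1149 members was 0.931, which is given as a description, since members share both libraries. The median signal was 39.0 in replicate 1 and 30.01 in replicate 2, against 44.1 and 33.6 over all peaks, and the median log2 ratio was 0.32 at members against 0.30 over all peaks.

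Members more than 2-fold off the overall ratio were few and weak. Above it in replicate 1 were 50 members (4.35%), against 3.96% of all peaks, and above it in replicate 2 were 23 (2.00%), against 1.29%. Of these members, 47 lay in the weakest of the 5 signal bins and none in the strongest 2. All peaks showed a similar pattern, with 2086 beyond 2-fold in the weakest bin and 2 in the strongest but one. Of peaks in the weakest bin found in both replicates, 21.2% of members and 17.2% of all peaks were beyond 2-fold. Dab1, which encodes the adaptor of reelin signalling, had 50.1 in replicate 1 and 6.46 in replicate 2, Map3k12 had 29.7 and 5.16, and Kcnma1 had 20.1 and 4.03. In the other direction, Dclk1, a microtubule-associated kinase gene, had 4.72 in replicate 1 and 21.5 in replicate 2, Ggt1 had 6.06 and 19.6, and Zfp672 had 8.08 and 24.8.

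**Figure D5:**
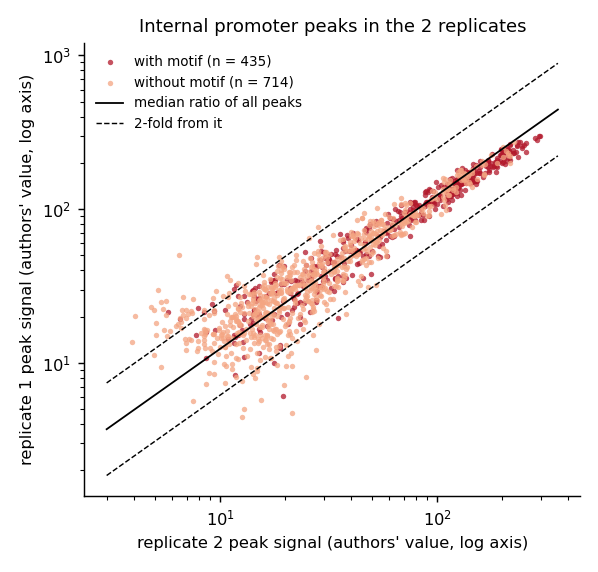
Signal of each internal promoter peak in replicate 1 (y axis) and replicate 2 (x axis), both on log axes, for the members found in both; dark points have a motif and light points none, the solid line marks the median ratio over all peaks and the dashed lines 2-fold from it. Points spread widely below a signal of about 30 and narrow above it, and 47 of the members beyond 2-fold lie in the weakest of 5 signal bins. In that bin 21.2% of members and 17.2% of all peaks are beyond 2-fold.

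The ratio also moved with strength. Centred on the median of all peaks, the median log2 ratio of members from the weakest bin to the strongest was 0.08, 0.22, 0.13, -0.02 and -0.12, against 0.16, 0.15, 0.12, 0.01 and -0.13 over all peaks. Members and all peaks were both lowest in the strongest bin, while in the weakest bin the value of members was below that of all peaks. The cause was not tested.

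The peaks nearest to the limits of the rule are given on both sides, members inside and other peaks outside. Just inside 1 kb were Mia3 at 1000 bp with 294 and Ptprj at 999 bp with 27.2, and just outside were Cct2 at 1006 bp with 72.8 and Mlph at 1007 bp with 434. Just inside the 5 kb limit were starts of Ift46 at 5002 bp with 399.6 and Rbbp6 at 5014 bp with 64.5. Just outside it were Ntng2 at 4965 bp with 64.6 and Park7 at 4954 bp with 79.1.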

How the data were processed

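CTCF ChIP-seq peaks came from midbrain of postnatal day 0 B6NCrl mice, 2 replicates of 1 group. The authors deposited narrowPeak lists on mm10, per the file headers, with a signal value per peak. Peak caller, aligner, read depth and the cutoff on the irreproducible discovery rate (IDR): not given in the sources used here. Intervals cover counting error only. From these were computed summit positions on chromosomes 1 to 19 relative to GENCODE vM21 coding starts, GC and CpG content in the 500 bp to either side, and matches of a 20 bp matrix learned from the 2000 strongest peaks of even or odd chromosomes and applied to the others. Shares carry 95% Wilson intervals, and no p-value was computed for a comparison. Replicate signal is that of the nearest replicate summit within 100 bp. The scripts were tested on simulated data. Members and the 12 gene lists (689 symbols) were chosen with earlier results of these data known. Genes named are the 12 strongest members, up to 4 genes per list with a member and up to 2 without, the gene with most members, the 3 members most unequal between replicates in each direction, and those at the limits of the rule; other genes were named after their values were seen, and some items the rule names are not reported here. Python 3.11.15, NumPy 2.4.6, pandas 2.3.3, SciPy 1.17.1 and matplotlib 3.10.9 were used.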

Additional observations from a re-analysis of the deposited data

How the results depend on the processing

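Results given first are those of the optimal list. No paired analysis was possible because the study has only 1 group. Alternatives with complete 5′ models, with stricter CpG thresholds, and all those of the CpG-rich and CpG-poor shares were chosen after seeing the data. The median centred replicate log2 ratio of members was 0.02, and 0.03 with the conservative list and 0.02 with summits matched within 50 bp.

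With the conservative list the gap in median percentile to gene body peaks was -3.15, the motif share 37.5%, the share of internal clusters with a peak 13.9% and that of CpG-rich clusters 52.0%. With the stronger 50% of peaks these were -5.29, 55.6%, 7.09% and 26.9%, with 547 members, a gap of 0.82 to outermost promoter peaks, 5.13% of CpG-poor clusters, a median position of -46 bp, a same-strand share of 48.4% and 69 list genes. At 500 bp from the start the gaps were 0.66 to outermost and -3.64 to gene body peaks, the motif share 32.0%, the cluster shares 9.99%, 45.3% and 6.51% (all, CpG-rich, CpG-poor) and the same-strand share 43.9%. At 10 kb from outermost ends the gaps were 0.70 and -3.84, with 34.7%, 13.9% of clusters and 45.1% same strand. With supported transcripts the gap to gene body peaks was -3.45, the motif share 31.2%, and the cluster shares 18.3%, 56.7% and 11.96%. With complete models the gaps were 0.17 and -4.37, with 31.4%, 18.0% of clusters and 11.97% of CpG-poor clusters. Motif thresholds of 1e-04 and 1e-06 gave shares of 59.4% and 16.4%, the looser with 48.9% same strand, and a window of 100 bp gave 37.5%. Stricter CpG thresholds gave 10.9% of CpG-poor clusters. Within motif peaks the gaps reversed to -5.14 and 7.24, and without a motif they were 0.86 and 3.58, the last reversed. The cause was not tested.

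Leaving out a replicate gave 1244 to 1253 members, gaps of 0.31 to 1.49 and -4.44 to -4.09, motif shares of 35.5% to 36.3%, cluster shares of 14.6% to 14.7%, 55.6% to 56.9% and 10.4% to 10.7%, positions of -32 to -21 bp, same-strand shares of 45.8% to 46.8% and 142 to 145 list genes.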

Other observations

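Beside Abr and Gramd1b, which held 6 and 5 members, 10 genes held 4, and 8 of them are not named above. Gnb5, a G protein beta subunit gene, had members of 19.9 to 390 and 1 with a motif. Mcf2l had 23.0 to 245 and 1 with a motif, and Iffo2 had 25.3 to 218 and 1 with a motif. The 4 members of Atf7ip, of Kat6b, a histone acetyltransferase gene, of Pde4d, a cyclic AMP phosphodiesterase gene, and of Zmynd8 had no motif, with strongest signals of 178, 144, 174 and 111. Sept9, a septin gene, had 21.0 to 62.8 and 2 with a motif. These genes were named after their values were seen.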
